A study of Mus musculus with 9 samples.

Results

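The hippocampus of middle-aged mice given quercetin was compared with the hippocampus of young control mice, in 6 of the 9 RNA-seq libraries of the series. Genes were taken where the FPKM (fragments mapped to a gene, scaled by its length and by the size of the library) reached at least 1 in at least 3 of these 6 libraries. Of 18798 genes with values, 12929 met this rule. Among them 12 passed through the quercetin-treated libraries with no young library at 1 FPKM, and 7 passed through the young libraries with no quercetin-treated library at 1 FPKM. The young control group (3 libraries) came from 8-week C57BL/6 mice given the solvent, PBS containing DMSO. The quercetin-treated group (3 libraries) came from C57BL/6 mice aged 10 months that received quercetin at 1 mg/kg in the same solvent every other day through the tail vein. The labels give 24 days of treatment. A middle-aged control group (3 libraries, 10 months, solvent only) is given beside them. All mice were female by the methods of the study, and the substrain of C57BL/6 is not stated in the labels. Nothing says whether a library is 1 mouse or a pool, so the p-values reflect the scatter of these libraries, which may be technical. The quercetin-treated and young groups differ in age and in treatment at once. These cannot be told apart in this comparison, which asks how near the treated middle-aged hippocampus lies to the young one.

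Quercetin is a plant flavonol. The hippocampus is the part of the brain in which new memories of events and places are laid down. Its neurons switch on immediate early genes such as Fos and Arc within minutes of activity. Astrocytes and oligodendrocytes make most of the cholesterol the adult brain uses. Microglia are among the cells that carry complement and antigen presentation genes, some of which are known to rise with age. Sterol genes are controlled together by the transcription factor SREBP2, which is released from the endoplasmic reticulum when membrane cholesterol is low.

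The FPKM sums of the 9 libraries lay between 325192 and 338861, and median-of-ratios factors between 0.994 and 1.01, so the scale was close to even. FPKM keeps no read counts, and the depth is unknown. Markers of the hippocampus were present in all 6 libraries: Prox1 of dentate granule neurons at 15.3 to 17.9 FPKM, Wfs1 of CA1 neurons at 28.3 to 39.3 FPKM, and Rgs14 of CA2 neurons at 30.3 to 36.6 FPKM. Transcripts of the choroid plexus, the epithelium that makes cerebrospinal fluid and lies against the hippocampus, stood out in young control 3 and quercetin-treated 2. Ttr, which encodes transthyretin, was at 2390.4 FPKM in young control 3 and 930.4 FPKM in quercetin-treated 2, against 1.08 to 28.3 FPKM in the other 7 libraries. Of 16 choroid plexus genes 6 passed the rule, and none was called. No gene of the NK and T cell list passed the rule. Counts that lead a paragraph were therefore also taken without these 2 libraries, with young control and quercetin-treated at 2 libraries each, an alternative chosen after seeing the data. Over all genes, both remaining quercetin-treated libraries then lay above both young ones in 15.7% and below in 18.3%.

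Few genes separated the quercetin-treated from the young hippocampus. At a Benjamini-Hochberg adjusted p under 0.05 from limma, 10 genes were called (0.0773% of those tested), 5 higher (0.0387%) and 5 lower (0.0387%), and 814 genes had an unadjusted p under 0.05. The median log2 difference over all genes was 0.00, on the log2(FPKM + 1) scale, which understates the change of low genes. The 95% interval of the difference lay inside -0.5 to 0.5 for 12411 genes (96.0%) and inside -1 to 1 for 12852 genes (99.4%). An absolute difference of 0.5 or more was seen in 56 genes and of 1 or more in 5. All 3 quercetin-treated libraries lay above all 3 young libraries in 836 genes (6.47%) and below them in 760 genes (5.88%). With 3 against 3, an exact permutation test of a single gene cannot give a 2-sided p below 0.10.

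**Figure D1:**
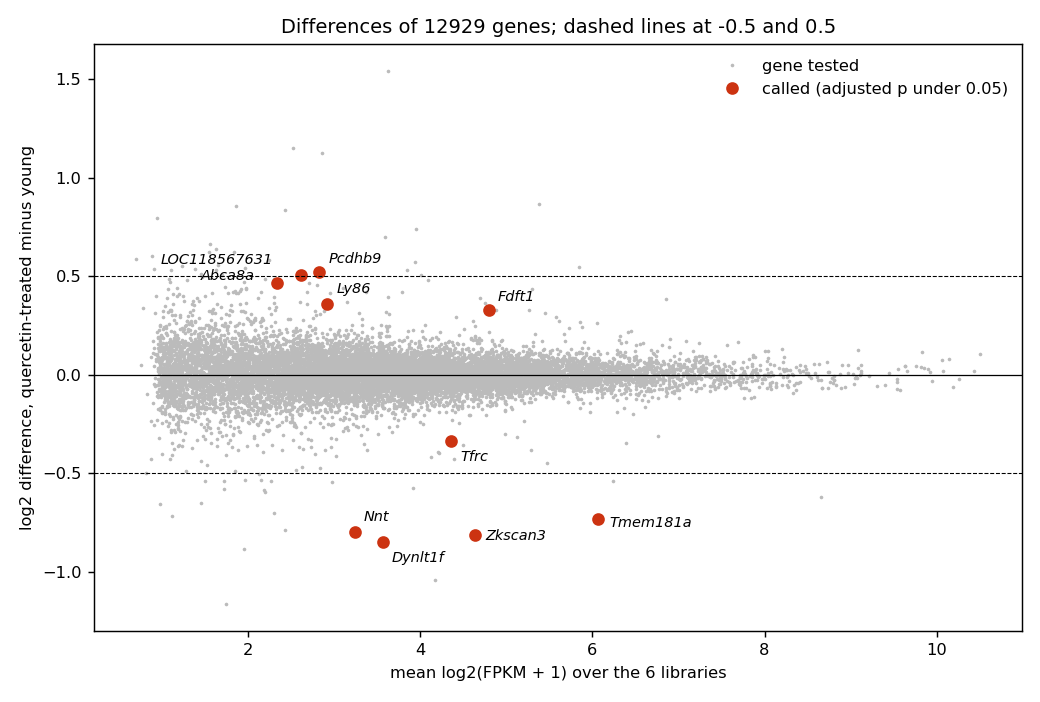
Each point is 1 of 12929 genes, with its mean log2(FPKM + 1) over the 6 libraries on the x axis and the log2 difference of quercetin-treated minus young on the y axis. The 10 called genes are marked, and the dashed lines stand at -0.5 and 0.5. Tmem181a, Nnt, Zkscan3 and Dynlt1f lie between -0.73 and -0.85, below the lower line.

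The same fit called 29 genes between the middle-aged control and young groups (0.224%), 10 higher and 19 lower. Both contrasts use the young libraries and are not independent. Tmem181a, Nnt, Zkscan3, Dynlt1f, Pcdhb9, Ly86 and LOC118567631 were called in both, each in the same direction. Abca8a, Fdft1 and Tfrc were called in the quercetin-treated comparison only, and whether their differences from the middle-aged controls were larger than the spread was not part of this comparison.

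The 4 genes with the smallest p were lower in the quercetin-treated group, and they were called under each of the 21 alternatives tried, the left-out libraries among them. Tmem181a, which encodes a multipass membrane protein, lies on chromosome 17 (6256726 to 6308314, GRCm38). Its level was 85.1, 88.04 and 84.3 FPKM in the young libraries, 50.5, 52.3 and 50.7 FPKM in the quercetin-treated and 51.2, 50.7 and 52.3 FPKM in the middle-aged control libraries. Middle-aged libraries, treated or not, were all far below the young ones and overlapped each other. Its log2 difference was -0.73 (95% interval -0.81 to -0.66, adjusted p = 4.07e-06).

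Nnt, on chromosome 13 (119335527 to 119409257), encodes the inner mitochondrial membrane enzyme that couples the proton gradient to NADPH production. It was at 10.9, 11.4 and 12.2 FPKM in young, 5.88, 6.31 and 6.35 FPKM in quercetin-treated, and 5.89, 6.55 and 6.37 FPKM in middle-aged control libraries. All 6 middle-aged values were below the lowest young value. The log2 difference between quercetin-treated and young was -0.80 (95% interval -0.93 to -0.67, adjusted p = 0.000273). Nnt is known to differ between C57BL/6 substrains, since C57BL/6J mice lack several of its exons. The labels name no substrain, so substrain and group cannot be told apart here. Of 8 genes listed as differing between substrains or colonies, 7 were tested and Nnt alone was called (0.0773% of all genes were called). Cyfip2, which carries a missense change in C57BL/6N mice, had a log2 difference of -0.01 (95% interval -0.11 to 0.10), and the expression of such a gene does not tell which allele is present. Wdfy1 had -0.08 (95% interval -0.23 to 0.06). Ide, insulin-degrading enzyme, differed by 0.53 with overlapping groups, from 10.6 to 11.5 FPKM in young and 16.4, 10.9 and 24.3 FPKM in quercetin-treated libraries (adjusted p = 0.758).

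Some genes near Nnt differed the other way. Tmem267, 78829 bases away, was at 7.33, 5.31 and 6.22 FPKM in young and 35.1, 15.2 and 15.1 FPKM in quercetin-treated libraries, with quercetin-treated 1 the highest. The difference of 1.54 (95% interval 0.96 to 2.13) was the largest positive one of all genes tested and was not called (adjusted p = 0.101). Ccl28, a mucosal chemokine gene 214562 bases from Nnt, was at 0.59, 0.49 and 0.33 FPKM in young and 2.06, 1.32 and 1.33 FPKM in quercetin-treated libraries, a difference of 0.80 that was not called either (adjusted p = 0.101). Quercetin-treated 1 was again the highest. Both genes were also high in the middle-aged controls, at 18.6 to 27.2 FPKM for Tmem267 and 1.5 to 2.26 FPKM for Ccl28, and both were called there. Paip1, between Nnt and these genes, had a difference of 0.03 (95% interval -0.06 to 0.13). Of the 7 tested genes within 500000 bases of Nnt, 3 had quercetin-treated libraries above the young (Tmem267, Ccl28 and the sterol gene Hmgcs1) and none below (6.47% and 5.88% over all genes). No young library reached 1 FPKM for Ccl28, which passed the rule only through the treated libraries. Its place in this count is therefore not independent of the rule.

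Zkscan3, a zinc finger gene with SCAN and KRAB domains on chromosome 13 (21387004 to 21402755), represses autophagy genes in human cells. It was at 32.4, 31.0 and 32.6 FPKM in young, 17.4, 20.1 and 16.1 FPKM in quercetin-treated and 16.8, 17.2 and 15.6 FPKM in middle-aged control libraries. No treated value reached the young range. Its log2 difference was -0.81 (95% interval -0.97 to -0.66, adjusted p = 0.000810). Of the 24 tested genes of its family, Zkscan3 was the only one called (0.0773% of all genes were called). The median difference was 0.04, and 20 of the 24 were positive. Treated libraries lay above the young without overlap in 5 and below in 3, against 6.47% and 5.88% of all genes. Near Zkscan3, the family members Zkscan4 and Zkscan8 had 0.09 (95% interval -0.13 to 0.31) and 0.10 (95% interval -0.04 to 0.25). The family holds many related genes that can share reads.

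Dynlt1f, on chromosome 17 (6646606 to 6655965), encodes a light chain of cytoplasmic dynein, the motor that carries cargo toward the minus end of microtubules. It was at 14.2, 17.2 and 13.6 FPKM in young, 7.25, 7.48 and 8.85 FPKM in quercetin-treated and 8.01, 7.59 and 7.67 FPKM in middle-aged control libraries. Young control 2 was the highest, and the groups did not overlap. The log2 difference was -0.85 (95% interval -1.04 to -0.66, adjusted p = 0.00362). Its copies on the same chromosome differed among themselves. Dynlt1b was at 4.60, 8.05 and 5.98 FPKM in young and 3.22, 2.27 and 3.96 FPKM in quercetin-treated libraries, with no overlap (log2 difference -0.79, adjusted p = 0.408). Dynlt1a, whose gene span overlaps that of Tmem181a, was also below young in every treated library (-0.30, adjusted p = 0.439). Dynlt1c went the other way with overlapping groups (0.54, 95% interval -0.06 to 1.14). Among the light chains of other kinds, Dynll1 had 0.00 (95% interval -0.13 to 0.13), Dynlrb1 -0.02 (95% interval -0.12 to 0.08) and Dynlt3 0.06 (95% interval -0.03 to 0.15). Dynll2 was above the young in all treated libraries by 0.07 (95% interval -0.04 to 0.17). Dynlrb2, which is known from ciliated cells, was at 0.70, 0.82 and 2.91 FPKM in young and 1.64, 1.90 and 1.80 FPKM in treated libraries, highest in young control 3.

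Values of single Dynlt1 copies depend on how the authors' counting divided shared reads, because the coding sequences of the copies are almost the same. In GENCODE vM21 each holds 342 coding bases. Dynlt1a, Dynlt1c and Dynlt1f are identical over all of them, and Dynlt1b differs from each at 1 base. The first 60 coding bases of the called copy and of Dynlt1b are shown 5′ to 3′, with the differing base in capitals, since this is the only coding base that tells them apart:
Dynlt1f: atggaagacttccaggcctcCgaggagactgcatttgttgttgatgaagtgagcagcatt
Dynlt1b: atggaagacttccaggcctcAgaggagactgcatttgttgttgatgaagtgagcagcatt
The coding bases shown lie on chromosome 17 of GRCm38, between 6653320 and 6655800 for Dynlt1f (minus strand) and between 6430212 and 6431912 for Dynlt1b (plus strand). The value of any 1 copy is therefore uncertain.

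The 6 other called genes had smaller differences and lost the call under 8 or more of the alternatives. Pcdhb9, on chromosome 18, is a member of the clustered protocadherins, cell adhesion proteins with which neurons tell their own branches from those of others. It was at 5.34, 4.69 and 4.79 FPKM in young, 7.70, 7.93 and 6.98 FPKM in quercetin-treated and 8.35, 7.52 and 7.48 FPKM in middle-aged control libraries. The treated libraries were all above the young and overlapped the middle-aged controls. The difference was 0.52 (95% interval 0.37 to 0.67, adjusted p = 0.0283), and the call held under 13 of 21 alternatives. It was lost without young control 2 or 3, middle-aged control 2, or quercetin-treated 1 or 2, where the adjusted p was 0.0509 to 0.199 and the difference 0.49 to 0.52. Of the 52 tested clustered protocadherins Pcdhb9 was the only one called (0.0773% of all genes were called), and the median difference was 0.03. Treated libraries lay above the young without overlap in 9 and below in 1 (6.47% and 5.88% over all genes). Pcdhga2 was at 4.50, 5.23 and 4.03 FPKM in young and 6.45, 7.15 and 6.46 FPKM in treated libraries (0.46, adjusted p = 0.200). The genes of these clusters are alike in sequence and can share reads.

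Ly86, which encodes MD-1, the partner of the immune receptor RP105, lies on chromosome 13 and is expressed by microglia. It was at 5.62, 5.96 and 5.52 FPKM in young, 7.76, 7.45 and 7.55 FPKM in quercetin-treated and 7.67, 7.93 and 7.76 FPKM in middle-aged control libraries. The difference was 0.36 (95% interval 0.25 to 0.47, adjusted p = 0.0418). It held under 8 of 21 alternatives and was lost without any single library, with a difference of 0.34 to 0.39 and an adjusted p of 0.0568 to 0.199. LOC118567631, an uncharacterised locus, was at 4.43, 3.95 and 4.13 FPKM in young and 5.93, 6.63 and 6.48 FPKM in treated libraries (0.51, adjusted p = 0.0418, called under 10 of 21 alternatives). It was called without middle-aged control 2 or 3 and lost without any other library, where the adjusted p was 0.0637 to 0.199. For these genes too the treated libraries kept to the range of the middle-aged controls or close to it, and away from the young.

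**Figure D2:**
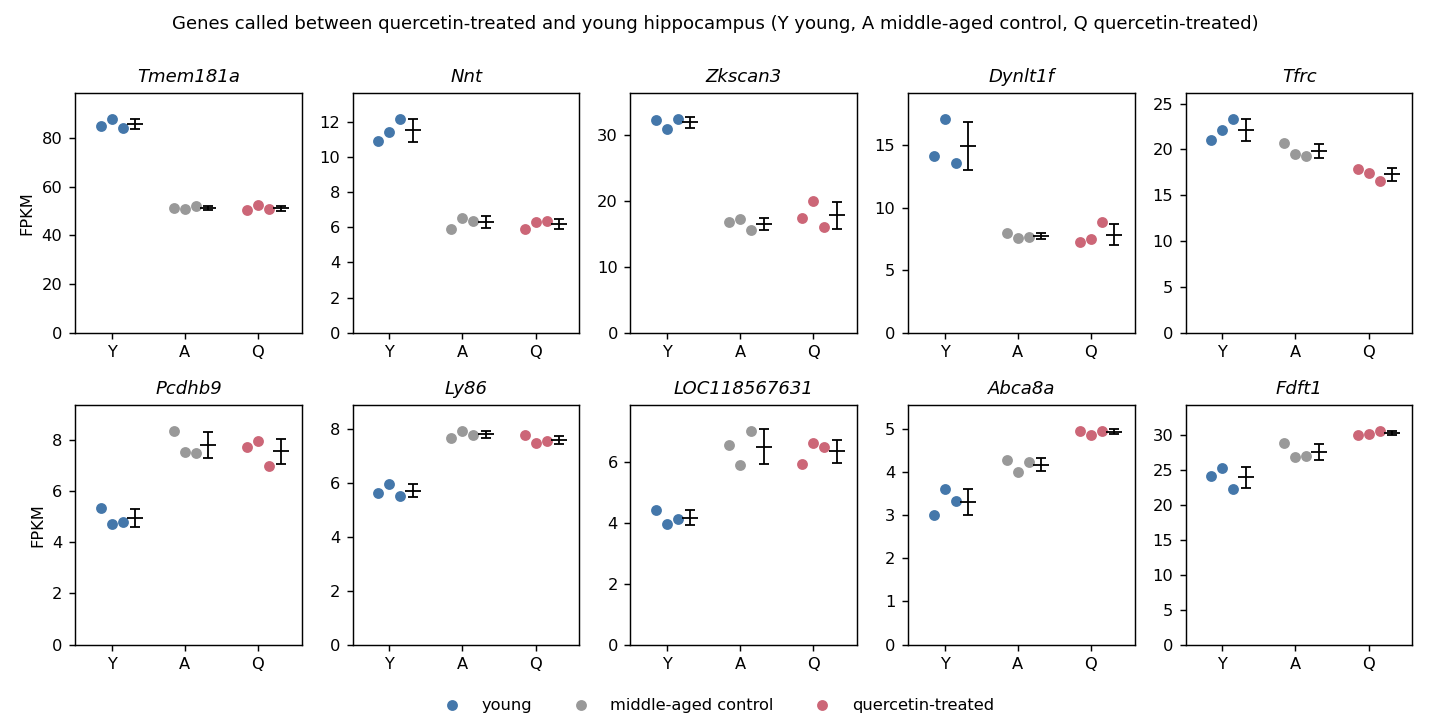
The FPKM of each called gene is plotted by library for the young (Y), middle-aged control (A) and quercetin-treated (Q) groups, with the mean and SD of the 3 libraries in black. In the top row, Tmem181a, Nnt, Zkscan3 and Dynlt1f have A and Q at the same height far below Y. Abca8a, Fdft1 and Tfrc have their Q values beyond the A values.

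Abca8a, Fdft1 and Tfrc had treated values beyond those of the middle-aged controls. Abca8a, on chromosome 11, encodes an ABC transporter of the subfamily linked to cholesterol and sphingolipid handling. It was at 3.00, 3.61 and 3.33 FPKM in young, 4.29, 4.01 and 4.24 FPKM in middle-aged control and 4.97, 4.87 and 4.97 FPKM in quercetin-treated libraries. The 3 groups did not overlap and stood in this order. The difference from young was 0.46 (95% interval 0.32 to 0.61, adjusted p = 0.0426), called under 8 of 20 alternatives. The call was lost without any library other than young control 2 (adjusted p 0.0659 to 0.199, difference 0.41 to 0.47). Its neighbour Abca8b had 0.02 (95% interval -0.14 to 0.18). Of the 22 tested genes of lipid transport and ABC transporters, Abca8a was the only one called (0.0773% of all genes were called). The median difference of this list was 0.01. Treated libraries lay above the young without overlap in 4 and below in 2, against 6.47% and 5.88% of all genes. Apoe, the main lipid carrier of the brain, had 0.11 (95% interval -0.02 to 0.24), and Abca1, the cholesterol exporter that loads it, -0.03 (95% interval -0.18 to 0.12).

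Tfrc, the transferrin receptor through which cells take up iron, is on chromosome 16. It was at 21.0, 22.1 and 23.4 FPKM in young, 20.7, 19.5 and 19.3 FPKM in middle-aged control and 17.9, 17.5 and 16.5 FPKM in quercetin-treated libraries. No value of 1 group fell within another. The difference from young was -0.34 (95% interval -0.45 to -0.23, adjusted p = 0.0478), called under 5 of 21 alternatives. The call was lost without any 1 library, with a difference of -0.37 to -0.30 and an adjusted p of 0.0734 to 0.199. Tfrc was the only one called of 19 tested iron genes (0.0773% of all genes were called). Among the 19, 2 lay above and 2 below the young without overlap (6.47% and 5.88% over all genes). The iron importer Slc11a2 was lower in all treated libraries by little (-0.08, 95% interval -0.17 to 0.01). The ferritin subunits Fth1 and Ftl1 overlapped the young values, with 0.11 (95% interval -0.05 to 0.26) and 0.09 (95% interval -0.06 to 0.24).

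Genes of sterol and fatty acid synthesis lay slightly above the young level in the treated group. Of 35 tested, 1 was called (Fdft1), against 0.0773% of all genes. A positive difference was seen in 33, and 19 (54.3%) had all treated libraries above all young ones, against 6.47% of all genes. None was below (5.88% over all genes). The median difference was 0.10, against 0.00 over all genes, and between 0.10 and 0.14 without any 1 library. Without young control 3 and quercetin-treated 2, 21 of the 35 were above and 2 below (15.7% and 18.3% over all genes). In the middle-aged controls the median difference of these genes from young was 0.07, against -0.01 over all genes. This list was chosen with earlier results of these data known.

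Along the pathway from acetyl-CoA to squalene and on to cholesterol, some enzymes lay above the young without overlap and others overlapped. Those that overlapped included Mvk (0.15), Fdps (0.15), Cyp51 (0.10), Lss (0.08), Dhcr7 (0.08), Pmvk (0.06), Ebp (0.04) and Sc5d (0.03). Enzymes without overlap had the following levels. Hmgcs1, which makes HMG-CoA, was at 79.4, 80.9 and 73.7 FPKM in young and 91.9, 92.8 and 87.5 FPKM in treated libraries (log2 difference 0.22, adjusted p = 0.159). The treated libraries were above the young without overlap. Idi1, which makes the dimethylallyl unit, had 0.18 (95% interval 0.08 to 0.28), and Mvd, which decarboxylates mevalonate diphosphate, 0.21 (95% interval 0.06 to 0.35). Fdft1, or squalene synthase, on chromosome 14, commits the pathway to sterols. It was at 24.1, 25.3 and 22.3 FPKM in young, 28.8, 26.8 and 27.0 FPKM in middle-aged control and 30.02, 30.1 and 30.6 FPKM in treated libraries. The treated libraries were above all others, and the difference from young was 0.33 (95% interval 0.22 to 0.44, adjusted p = 0.0478), called under 7 of 21 alternatives. Only the fit without young control 2 kept the call among those that left out 1 library. The others gave 0.28 to 0.34 and an adjusted p of 0.0734 to 0.203.

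Sqle, which oxidises squalene, followed with 22.2, 20.9 and 21.1 FPKM in young and 27.8, 25.0 and 25.4 FPKM in treated libraries (0.27, adjusted p = 0.118). Msmo1, a sterol demethylase, was at 39.8, 45.1 and 41.5 FPKM in young and 52.0, 52.9 and 50.5 FPKM in treated libraries (0.29, adjusted p = 0.101). Neither overlapped, and neither was called. Among genes that SREBP2 also controls, Stard4, a cholesterol carrier, was at 4.54, 4.87 and 4.73 FPKM in young and 6.57, 6.84 and 5.62 FPKM in treated libraries (0.36, adjusted p = 0.157). Insig1, which holds SREBP in the endoplasmic reticulum, was at 20.9, 22.9 and 21.7 FPKM in young and 26.6, 25.8 and 26.0 FPKM in treated libraries (0.25, adjusted p = 0.158). Its middle-aged control values, 27.5, 24.8 and 26.7 FPKM, covered the treated ones. Srebf2, which encodes SREBP2 itself, had 0.09 (adjusted p = 0.777). Among the fatty acid genes, Acly had 0.10 and Scd2 0.13, both above the young without overlap. Fasn had 0.04 and Fads1 0.02, with overlap. Tm7sf2, a sterol reductase, was the lowest of the list at -0.13 and overlapped the young.

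Because these genes differed in 1 direction, the promoters of 4 of them were read from the RefSeq table of GRCm38.p6, as the 250 bases before the start of the gene. The letters TCACNCCAC (sterol regulatory element, the site SREBP binds), CCAAT (the site of NF-Y, which acts with SREBP) and CACGTG (E-box) were searched on both strands. None of these motifs contains another. Matches are in capitals, and each sequence runs 5′ to 3′ toward the gene:
Hmgcs1: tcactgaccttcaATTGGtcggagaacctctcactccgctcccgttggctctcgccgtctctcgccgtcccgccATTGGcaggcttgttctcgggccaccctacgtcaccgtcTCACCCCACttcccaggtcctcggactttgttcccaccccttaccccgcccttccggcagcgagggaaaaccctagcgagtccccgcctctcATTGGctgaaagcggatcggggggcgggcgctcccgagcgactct
Idi1: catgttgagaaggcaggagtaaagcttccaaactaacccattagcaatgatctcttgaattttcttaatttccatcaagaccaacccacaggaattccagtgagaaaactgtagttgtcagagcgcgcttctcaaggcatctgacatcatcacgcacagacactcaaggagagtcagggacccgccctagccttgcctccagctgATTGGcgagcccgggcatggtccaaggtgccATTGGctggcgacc
Msmo1: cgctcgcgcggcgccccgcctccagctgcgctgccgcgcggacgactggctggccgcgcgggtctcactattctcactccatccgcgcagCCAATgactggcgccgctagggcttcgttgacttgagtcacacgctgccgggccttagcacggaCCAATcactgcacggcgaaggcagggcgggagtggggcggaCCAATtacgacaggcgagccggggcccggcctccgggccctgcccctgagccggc
Insig1: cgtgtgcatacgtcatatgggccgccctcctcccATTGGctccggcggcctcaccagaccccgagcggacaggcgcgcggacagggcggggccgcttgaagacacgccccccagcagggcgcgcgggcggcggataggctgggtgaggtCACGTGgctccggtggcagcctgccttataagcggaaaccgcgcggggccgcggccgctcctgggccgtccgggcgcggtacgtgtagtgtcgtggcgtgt
They lie at chr13:119690101-119690350 (plus strand), chr13:8885356-8885605 (plus strand), chr8:64733579-64733828 (minus strand) and chr5:28071162-28071411 (plus strand). Hmgcs1 held 1 match to TCACNCCAC, beginning 137 bases before the start, and 3 to CCAAT. Msmo1 held 3 to CCAAT, Idi1 2 and Insig1 1, and Insig1 also held the E-box, 101 bases before the start. Of the 19 sterol genes above the young, 11 had a promoter in the table. CCAAT was in 9 of these, against 33.8% of all 32851 promoters, TCACNCCAC in 1 (Hmgcs1) against 1.05%, and CACGTG in 2 (Insig1 and Hsd17b7) against 6.02%. A match is a description of the letters and shows no binding. Sterol genes that overlapped the young were not counted, so these shares do not tell whether the letters go with the difference.

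**Figure D3:**
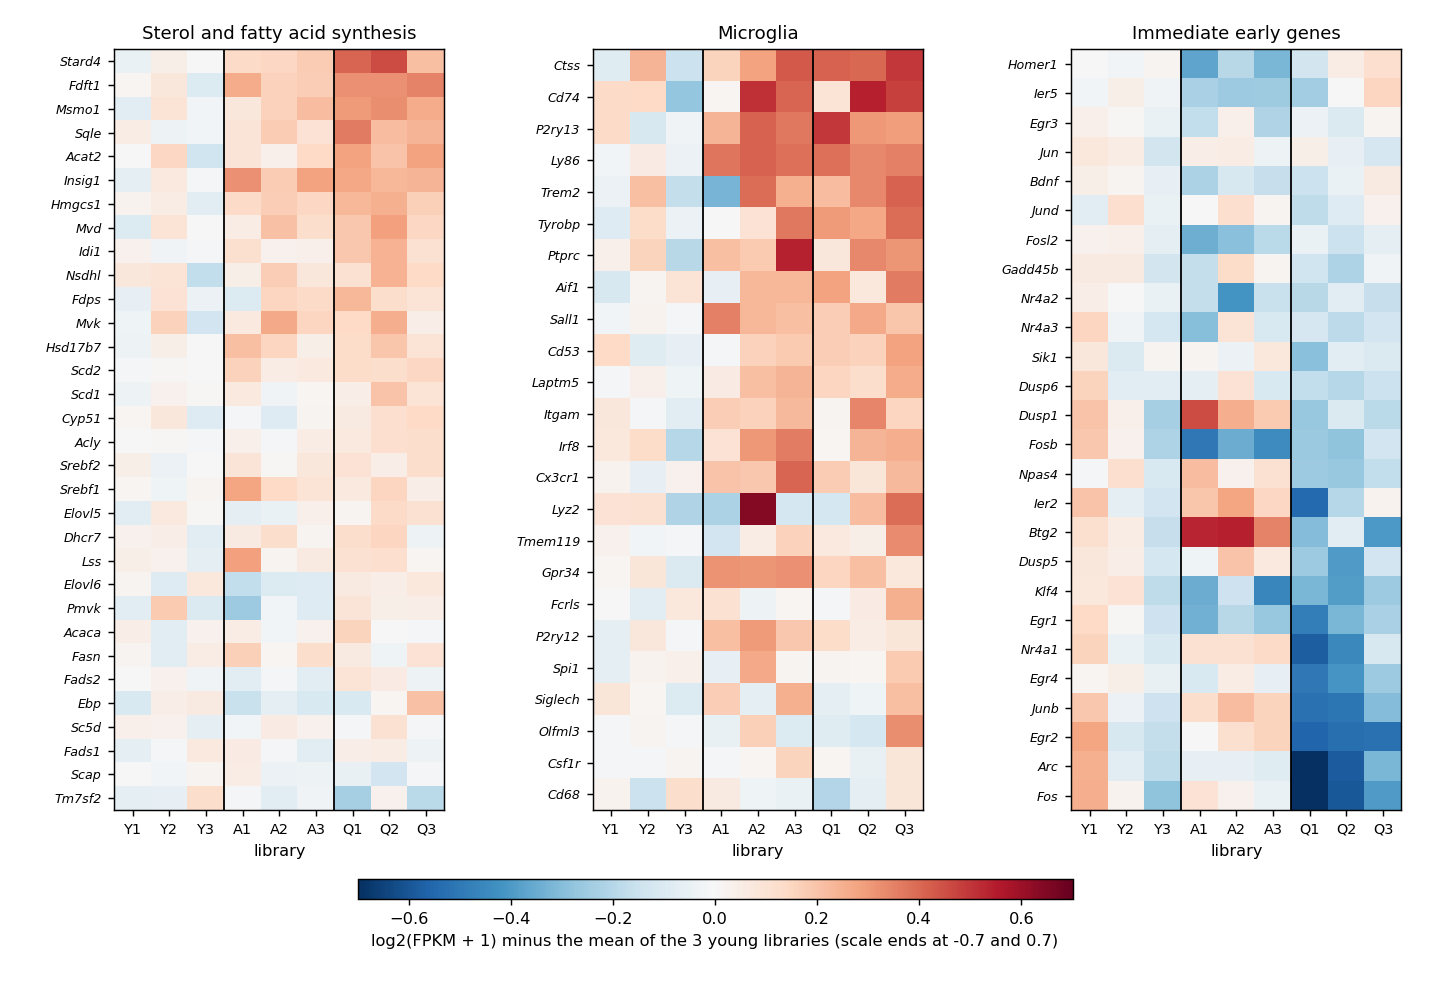
Each row is a gene and each column a library (Y young, A middle-aged control, Q quercetin-treated), and the colour is log2(FPKM + 1) minus the mean of the 3 young libraries, for most tested members of the 3 lists. Sterol genes are mostly red in Q and paler in A, microglial genes are red in A and Q alike, and the lowest rows of the immediate early genes (Nr4a1, Egr4, Junb, Egr2, Arc and Fos) are blue in Q and pale or red in A.

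Immediate early genes lay below the young in the quercetin-treated group. Of 26 tested none was called, 25 had a negative difference, and 12 (46.2%) had all treated libraries below all young ones, against 5.88% of all genes. The median difference was -0.21. It was -0.13 without young control 1, the library with the highest values, -0.29 without young control 3, and between these without any other single library. Without young control 3 and quercetin-treated 2, 20 of the 26 were below and none above (18.3% and 15.7% over all genes). In the middle-aged controls the median difference from young was -0.02, but 7 of the 26 lay below the young without overlap and 1 above. The share over all genes was not counted for the middle-aged controls.

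Fos, a subunit of the AP-1 transcription factor, was at 21.0, 17.8 and 14.2 FPKM in young, 18.7, 17.8 and 16.8 FPKM in middle-aged control and 10.1, 11.2 and 13 FPKM in treated libraries. Arc, whose protein regulates AMPA receptors at synapses, was at 107, 85.9 and 79.8 FPKM in young, 86.7, 86.9 and 85.2 FPKM in middle-aged control and 54.4, 59.9 and 72.2 FPKM in treated libraries. Young control 1 was the highest for both, quercetin-treated 1 the lowest, and the treated values lay under all the others. The differences from young were -0.57 for Fos (95% interval -0.84 to -0.31, adjusted p = 0.217) and -0.54 for Arc (95% interval -0.78 to -0.30, adjusted p = 0.187).

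Junb, another AP-1 subunit, was at 58.4, 49.6 and 46.0 FPKM in young and 35.2, 35.7 and 41.1 FPKM in treated libraries (-0.45, adjusted p = 0.128). Egr2, a zinc finger factor, was at 5.48, 3.95 and 3.75 FPKM in young and 2.63, 2.71 and 2.72 FPKM in treated libraries (-0.53, adjusted p = 0.166). The 3 treated values of Egr2 were nearly equal. Egr4 was at 20.4, 20.8 and 19.4 FPKM in young and 14.0, 14.9 and 16.8 FPKM in treated libraries, with the smallest adjusted p of the list (-0.39, adjusted p = 0.0844). It passed the threshold when the values of each library were scaled to the same sum and without quercetin-treated 3. Npas4, which is induced by calcium entry in neurons, had -0.23 (95% interval -0.38 to -0.08). Not every gene of the list went along: Jun had -0.05 (95% interval -0.18 to 0.09), Egr3 -0.04 (95% interval -0.18 to 0.09), Bdnf -0.05 (95% interval -0.18 to 0.09) and Homer1 0.01 (95% interval -0.13 to 0.15). Btg2 and Dusp1, with differences of 0.48 and 0.30 in the middle-aged controls, were at -0.26 and -0.18 in the treated group, where both overlapped the young.

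Microglial genes were above the young in both middle-aged groups. Of 25 tested 1 was called (Ly86), against 0.0773% of all genes, and 24 had a positive difference. All treated libraries lay above all young ones in 11 (44.0%), against 6.47% of all genes, with none below (5.88% over all genes). The median difference was 0.17 in the treated group and 0.16 in the middle-aged controls. It stayed between 0.14 and 0.22 without any 1 library, and without young control 3 and quercetin-treated 2 the count above was 14 of 25 (15.7% over all genes). In bulk tissue, more cells of a type and more RNA per cell cannot be told apart. Ctss, the lysosomal protease cathepsin S, was at 31.1, 39.0 and 29.6 FPKM in young and 44.3, 43.9 and 47.0 FPKM in treated libraries (0.44, adjusted p = 0.248). Tyrobp, the adaptor of TREM2, was at 9.20, 10.9 and 9.58 FPKM in young and 12.3, 12.1 and 13.2 FPKM in treated libraries (0.32, adjusted p = 0.587). The defining markers varied. P2ry13 had 0.36 (95% interval 0.17 to 0.56), Cx3cr1 0.16 (95% interval 0.02 to 0.31) and Tmem119 0.15 (95% interval -0.05 to 0.34). P2ry12 had 0.09 (95% interval -0.03 to 0.20) and Csf1r 0.02 (95% interval -0.10 to 0.13).

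Among the microglial, complement, interferon and MHC class I lists, the largest difference belonged to a complement gene. C4b, a component of the classical pathway, was at 10.4, 13.7 and 9.29 FPKM in young, 16.2, 20.2 and 18.8 FPKM in middle-aged control and 15.8, 19.9 and 21.8 FPKM in treated libraries. All middle-aged libraries were above the young, and the difference of 0.74 (95% interval 0.44 to 1.04) was not called (adjusted p = 0.135). C1qa, C1qb and C1qc, the subunits of the starting complex, had 0.33, 0.22 and 0.12, the first 2 without overlap. Of 10 tested complement genes 3 were above and 1 below (Masp1), against 6.47% and 5.88% of all genes. Gfap, the intermediate filament of astrocytes, was at 100.3, 97.5 and 103 FPKM in young and 114, 132 and 149 FPKM in treated libraries (0.38, adjusted p = 0.265), and S100b had 0.31 (adjusted p = 0.161). The median of the 18 astrocyte identity genes was 0.01.

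Type I interferon genes had a high median and no clear separation. The median difference of 20 tested genes was 0.33, 18 were positive, and none had groups that did not overlap. The library scores (the median over the genes of log2(FPKM + 1) minus the mean of the 6 libraries) placed 1 young library among the treated ones. Young control 2 was at 0.17, young control 1 and 3 at -0.24 and -0.28, and quercetin-treated 1, 2 and 3 were at -0.08, 0.16 and 0.33. Without young control 3 the median was 0.16, without quercetin-treated 3 it was 0.17, and without young control 2 it was 0.45. Irf7, a master regulator of interferon responses, was at 0.99, 2.56 and 0.81 FPKM in young and 1.81, 2.88 and 3.67 FPKM in treated libraries (0.66, adjusted p = 0.720). The 17 tested genes of MHC class I presentation had a median of 0.13, or 0.30 without young control 2, and none without overlap. H2-D1 was at 23.4, 37.6 and 17.7 FPKM in young and 21.9, 27.0 and 32.3 FPKM in treated libraries, with the highest value in young control 2.

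Chaperones and glucocorticoid-responsive genes, which include many of the genes called in the middle-aged controls, were near the young level in the treated group to different degrees. The list of endoplasmic reticulum chaperones and the unfolded protein response (32 tested) had a median difference of 0.03 in the treated group and -0.18 in the middle-aged controls, and the 30 cytosolic heat shock proteins and co-chaperones 0.01 and -0.16. No gene of either list was called between treated and young, and 2 and 1 lay above, 0 and 3 below (6.47% and 5.88% over all genes). Without young control 3 and quercetin-treated 2 the chaperones of the endoplasmic reticulum had 15 above and 0 below (15.7% and 18.3% over all genes). Hspb6, a small heat shock protein, was the farthest from the young, at 2.59, 2.10 and 2.51 FPKM in young and 1.39, 1.41 and 1.61 FPKM in treated libraries (-0.46, adjusted p = 0.259). Of the 23 tested glucocorticoid-responsive genes, 18 had a negative difference in the treated group. The median was -0.11 there, or -0.07 without quercetin-treated 1, and -0.26 in the middle-aged controls. In the treated group 8 lay below the young without overlap, against 5.88% of all genes. Without young control 3 and quercetin-treated 2, 15 lay below (18.3% over all genes). Arrdc2, an arrestin-like gene, was at 7.81, 8.80 and 7.08 FPKM in young, 4.69, 5.16 and 5.78 FPKM in middle-aged control and 5.79, 5.92 and 5.91 FPKM in treated libraries (-0.37, adjusted p = 0.268). Nfkbia, the inhibitor of NF-kappaB, had -0.27 (95% interval -0.45 to -0.08). Tsc22d3, or GILZ, was at 56.2, 51.2 and 47.98 FPKM in young, 33.3, 32.6 and 35.6 FPKM in middle-aged control and 45.1, 48.8 and 49.7 FPKM in treated libraries. Its treated values overlapped the young (-0.11, 95% interval -0.24 to 0.02), and all of them were above the middle-aged controls. Fkbp5, a co-chaperone that dampens the glucocorticoid receptor, had -0.07 (95% interval -0.16 to 0.01), with treated libraries at 19.2, 19.5 and 19.95 FPKM just under the lowest young value of 20.3 FPKM.

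Of the 29 genes called between middle-aged controls and young, 7 were also called in the treated group. A further 13 were not called and had an interval that included 0, and all 13 of these intervals lay within -0.5 to 0.5. The remaining 9 were not called but had intervals that left out 0. The 29 were picked because the middle-aged controls lay far from young in these same libraries. Smaller differences in another group can arise from this choice alone, and that was not tested. Hspa5, or BiP, the main chaperone of the endoplasmic reticulum, was at 150.5, 139 and 161 FPKM in young, 90.6, 114 and 94.3 FPKM in middle-aged control and 151, 169 and 144 FPKM in treated libraries (log2 difference 0.04, 95% interval -0.16 to 0.24). Dio2, which activates thyroid hormone, was at 19.2, 16.6 and 16.7 FPKM in young, 11.1, 10.8 and 11.5 FPKM in middle-aged control and 16.8, 17.8 and 19.9 FPKM in treated libraries (0.05, 95% interval -0.10 to 0.20). For both, the treated libraries overlapped the young and none reached down to the middle-aged controls.

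Zbtb16, a zinc finger repressor, behaved alike, at 21.5, 23.9 and 23.3 FPKM in young, 15.0, 13.7 and 17.5 FPKM in middle-aged control and 23.6, 22.7 and 24.6 FPKM in treated libraries (0.04, 95% interval -0.12 to 0.21). Zeb2, a transcription factor of neurons and glia, was higher in the middle-aged controls and had 0.01 in the treated group (95% interval -0.07 to 0.10). Fkbp4, an HSP90 co-chaperone of steroid receptors, had -0.01 (95% interval -0.10 to 0.08), and Cables1 0.05 (95% interval -0.08 to 0.19). Neto1, an auxiliary subunit of kainate receptors, had 0.03 (95% interval -0.07 to 0.12), the HSP90 activator Ahsa2 -0.04 (95% interval -0.17 to 0.09) and Ccdc117 -0.05 (95% interval -0.19 to 0.09). Dnajb1, an HSP40, Rims4, a protein of the presynaptic active zone, and Rhobtb2 were lower than the young in all treated libraries, by differences of -0.09, -0.09 and -0.12 with adjusted p of 0.798, 0.790 and 0.657. Missing the threshold is no proof of likeness, and these intervals give the sizes that the data leave possible.

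Other genes lay between the young and the middle-aged controls. Cdkn1a, which encodes the cell cycle inhibitor p21, was at 8.02, 8.31 and 9.26 FPKM in young, 6.34, 6.83 and 7.26 FPKM in treated and 3.57, 5.03 and 4.04 FPKM in middle-aged control libraries. The 3 groups did not overlap, and the treated differed from the young by -0.29 (95% interval -0.50 to -0.07, adjusted p = 0.659). Pisd, which makes phosphatidylethanolamine in mitochondria, was at 46.2, 48.2 and 45.6 FPKM in young, 58.1, 73.8 and 75.5 FPKM in treated and 101, 130.3 and 172 FPKM in middle-aged control libraries (0.55, adjusted p = 0.586). Mid1, an X-linked ubiquitin ligase gene, was at 3.90, 4.04 and 3.89 FPKM in young, 7.03, 11.7 and 11.3 FPKM in treated and 14.5, 14.6 and 28.0 FPKM in middle-aged control libraries (1.13, adjusted p = 0.187). For these 3 genes every treated value lay between the young and the middle-aged control values.

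**Figure D4:**
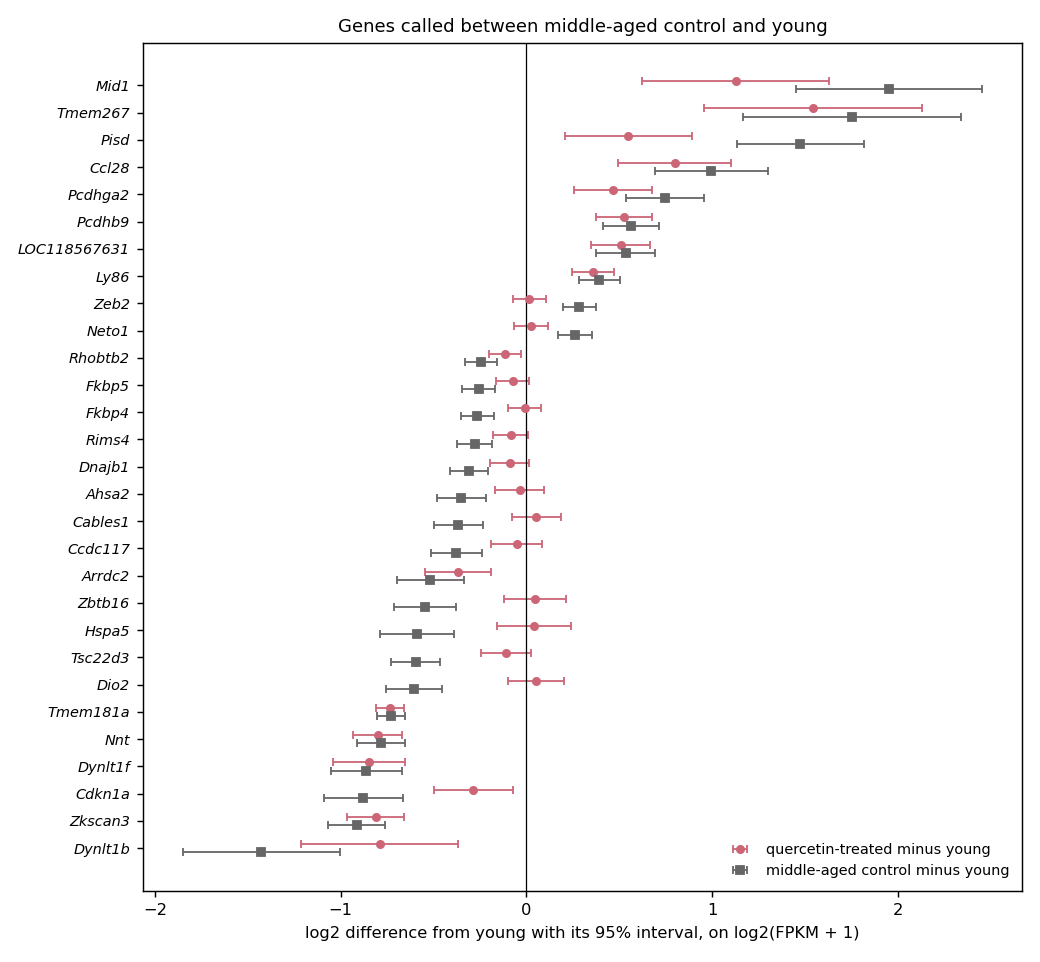
The 29 genes called between middle-aged control and young are shown with their log2 difference from young and its 95% interval, for the quercetin-treated (circles) and middle-aged control (squares) libraries, which share the young libraries. Circles sit near 0 for 13 genes, among them Hspa5, Dio2, Zbtb16 and Zeb2, and on the squares for Tmem181a, Nnt, Dynlt1f and Ly86.

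Outside these lists, the genes with the smallest p that were not called included several secreted signals. Vegfa, the angiogenic growth factor, was at 22.1, 23.7 and 22.6 FPKM in young, 23.2, 20.7 and 22.96 FPKM in middle-aged control and 27.4, 30.6 and 30.9 FPKM in treated libraries (0.36, 95% interval 0.24 to 0.49, adjusted p = 0.0769). Penk, the precursor of enkephalins, was at 10.6, 13.1 and 14.0 FPKM in young and 19.2, 18.3 and 17.1 FPKM in treated libraries (0.51, adjusted p = 0.108). Il33, an alarmin of oligodendrocytes and astrocytes, was at 20.6, 23.5 and 21.3 FPKM in young and 26.2, 29.2 and 31.3 FPKM in treated libraries (0.39, adjusted p = 0.110). In each, all treated libraries were above the young. Sp100, a nuclear body protein induced by interferon, was at 1.34, 1.59 and 1.54 FPKM in young and 2.56, 3.10 and 2.99 FPKM in treated libraries (0.64, adjusted p = 0.0769). Both Vegfa and Sp100 passed the threshold with robust empirical Bayes.

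Wfs1, which encodes the membrane protein wolframin and marks CA1 neurons, was at 37.3, 37.0 and 39.3 FPKM in young, 31.1, 29.5 and 32.8 FPKM in middle-aged control and 31.1, 31.3 and 28.3 FPKM in treated libraries (-0.32, adjusted p = 0.0842). The other 9 CA1 markers overlapped between treated and young (over all genes 6.47% lay above and 5.88% below), and the median of the list was -0.05. The 17 tested genes of oligodendrocyte precursors and newly formed oligodendrocytes had a median of 0.00, with 2 above the young and 4 below without overlap (6.47% and 5.88% over all genes). Gpr17 and Cspg4 were below (-0.35 and -0.27, adjusted p = 0.557 and 0.587), Sox10 was above (0.23, adjusted p = 0.639), and Pdgfra, the receptor that defines the precursors, had 0.00 (95% interval -0.15 to 0.15). Anln, a gene of mature oligodendrocytes, was above the young at 13.5, 16.3 and 15.6 FPKM against 10.1, 10.96 and 12.04 FPKM (0.42, adjusted p = 0.149). The 24 myelin genes had a median of 0.06. That median was 0.15 without quercetin-treated 1 and -0.03 without young control 1, so its sign rests on single libraries.

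Large differences were not always well supported. Igf2, the growth factor made by meninges and choroid plexus in the adult brain, was at 20.6, 21.1 and 35.9 FPKM in young and 6.15, 16.4 and 15.2 FPKM in treated libraries (-1.04, 95% interval -1.92 to -0.17, adjusted p = 0.735). The highest value was in young control 3, the library with choroid plexus transcripts, and meningeal and fibroblast genes (13 tested, median -0.17) ranged in score from 0.28 in young control 1 to -0.51 in quercetin-treated 1. The median of that list was 0.02 without quercetin-treated 1 and -0.35 without young control 3, so its sign rests on single libraries. Without young control 3 and quercetin-treated 2 together it was -0.49. In that setting 7 of the 13 lay below and 0 above (18.3% and 15.7% over all genes). The part of these cells in the difference was not tested. Collagen and matrix genes leaned the same way (27 tested, 20 negative, median -0.06, or -0.13 without quercetin-treated 2), with Col1a2 at 4.76, 4.02 and 2.57 FPKM in young and 1.27, 2.94 and 2.81 FPKM in treated libraries. Gm5528, annotated as a pseudogene, was at 3.76, 4.47 and 3.85 FPKM in young and 1.66, 0.26 and 2.34 FPKM in treated libraries (-1.17, adjusted p = 0.639), and LOC118568448 had -0.59 (adjusted p = 0.217). Both were lower in all treated libraries. Xlr3b, an X-linked imprinted gene, was at 4.20, 3.92 and 4.78 FPKM in young and 1.48, 0.88 and 4.06 FPKM in treated libraries, where quercetin-treated 3 overlapped the young (-0.88, adjusted p = 0.735). Fam177a had values of 0, 13.04 and 3.09 FPKM in young and 6.82, 7.67 and 8.28 FPKM in treated libraries (1.15, adjusted p = 0.836), so that the scatter was in the young libraries, where it is listed at 0 in 1. LOC118568284 was at 2.61, 2.52 and 0.54 FPKM in young and 4.77, 4.02 and 3.01 FPKM in treated libraries (0.86, adjusted p = 0.657). Ttr had a log2 difference of 0.87 with an interval of -4.35 to 6.09, which spans both directions. Hemoglobin genes were low in young control 1 and quercetin-treated 2, with Hbb-bs at 6.34 and 8.02 FPKM there and 28.0 to 47.6 FPKM in the other 4 libraries of the comparison.

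Several groups of genes had medians between -0.07 and 0.02. The 64 ribosomal protein genes had a median of 0.02 and none without overlap, and the 55 nuclear genes of oxidative phosphorylation had a median of 0.02, with 5 above and 1 below (6.47% and 5.88% over all genes). Antioxidant genes (24 tested, median 0.01) held Nnt as the only called member (0.0773% of all genes were called). Hmox1, the inducible heme oxygenase, had 0.10 (95% interval -0.17 to 0.37). Glutamate receptors had a median of -0.02 and GABA-A receptors 0.01, with no gene called. Among 25 tested neuropeptide, neurotrophin and convertase genes, 3 lay above the young (Penk, Tac1 and Cort) and 0 below, against 6.47% and 5.88% of all genes. Tac1, the substance P precursor, had 0.18 (95% interval 0.05 to 0.31) and Cort, the cortistatin gene, 0.23 (95% interval 0.02 to 0.45). Hdac1, a histone deacetylase, was at 17.43, 17.45 and 17.43 FPKM in young and 15.8, 15.5 and 15.7 FPKM in treated libraries (-0.14, adjusted p = 0.439). It was 1 of 3 below the young among 16 tested genes of histone and DNA modification, with 1 above (5.88% and 6.47% over all genes). Genes of adult neurogenesis had a median of -0.07 over 17 tested. It was -0.04 without quercetin-treated 3 and -0.14 without young control 3 and quercetin-treated 2, where 5 lay below and 0 above (18.3% and 15.7% over all genes). Dcx, the marker of migrating neuroblasts, was at 3.10, 3.66 and 3.06 FPKM in young and 3.10, 3.04 and 2.15 FPKM in treated libraries (-0.19, 95% interval -0.45 to 0.06).

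**Figure D5:**
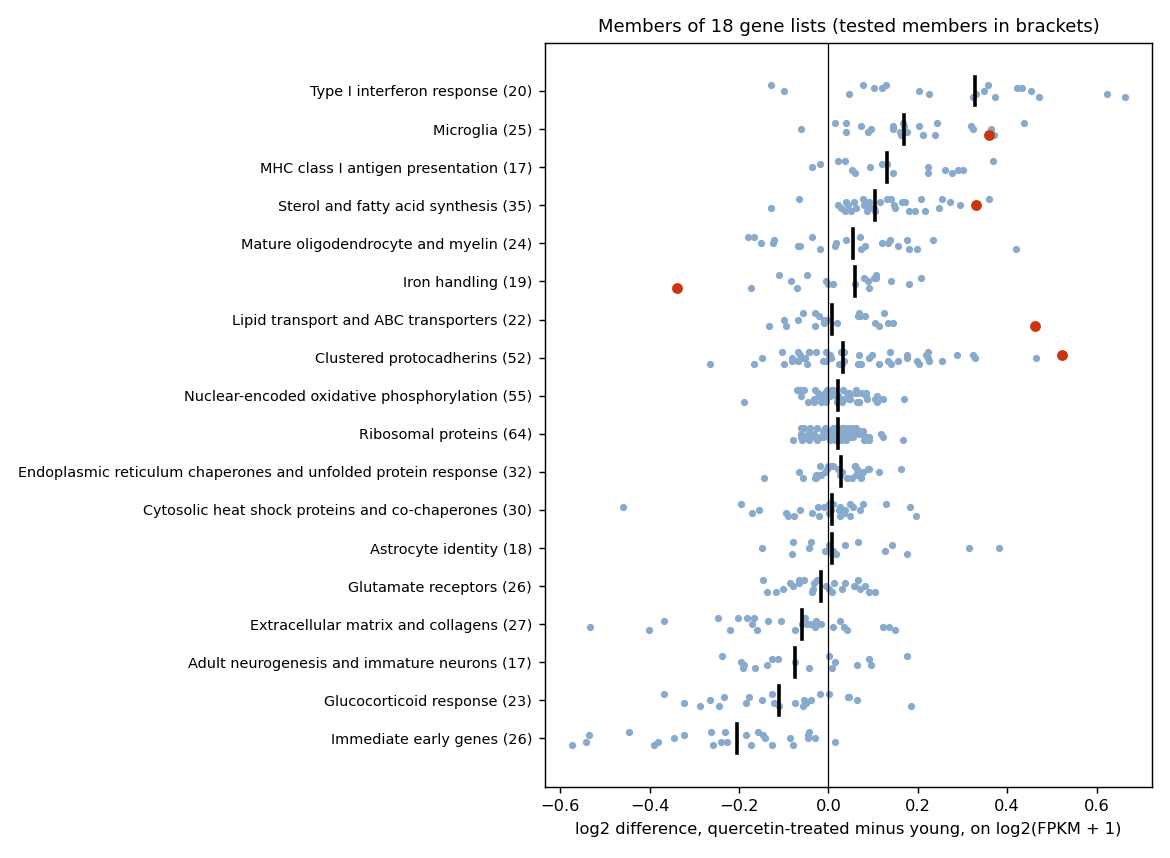
Each point is a tested gene of 1 of 18 lists, with its log2 difference of quercetin-treated minus young on the x axis, and the black bar is the median of the list. Called genes are red. The sterol, microglia and interferon lists have nearly all points to the right of 0 and the immediate early genes nearly all to the left, while ribosomal and chaperone genes are centred on 0.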

How the data were processed

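RNA was extracted from the hippocampus, poly(A) selected and sequenced on BGISEQ-500. The authors deposited 1 table of FPKM values per gene and library, with 2 decimals. HISAT2, Bowtie2 and RSEM stand in the study's methods, whereas TopHat2 and Cufflinks with GRCm38 stand in the submitters' processing notes. The sources used here do not say which produced the table. FPKM holds no counts, so no count model was used.

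Each of 12929 genes (1 FPKM or more in 3 or more of the 6 compared libraries) was tested on log2(FPKM + 1), pseudocount 1, with limma 3.58.1 in R 4.3.3. Empirical Bayes used a mean-variance trend, and all 9 libraries shared 1 estimate of the spread. P-values were 2-sided and Benjamini-Hochberg adjusted over all genes tested, with a threshold of 0.05. The fit was checked on simulated data. The rule for named genes took every called gene, the genes of smallest p without overlap (up to 12 in a direction with the called), the 3 largest differences of each list, the 5 largest in each direction, the genes called between middle-aged control and young, and all choroid plexus, substrain and dynein light chain genes. Other members of the lists and neighbours of called genes were chosen after their values were seen. The members and lists were chosen with earlier results of these data known. Lists are described by counts and medians, with no test, and some members that enter these counts are not reported here by name. Same-numbered young and quercetin-treated libraries correlated at 0.121, -0.205 and -0.186 in their deviations, so the numbers do not pair them. Alternatives changed the pseudocount, filter, scaling, trend, samples and replicate block, and left out each library. Promoters come from RefSeq (GRCm38.p6), gene positions from the RefSeq gene table, and the coding sequences of the Dynlt1 copies with their positions from GENCODE vM21. Of the genes tested, 12870 had a position.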

Additional observations from a re-analysis of the deposited data

How the results depend on the processing

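The count of 10 called genes was 4 with no filter on low values, 4 with the 6 libraries only, 4 without young control 3 and quercetin-treated 2 together, and 4 at an adjusted p under 0.01. Leaving out 1 library gave 4 to 8. The lowest, 4, came without young control 3 or quercetin-treated 2. Other alternatives gave 8 to 12, an adjusted p under 0.1 gave 14, and the replicate block gave 7, of which 5 were among the 10. Same-numbered libraries were not paired by their deviations (0.121, -0.205 and -0.186). Neither the 10 called genes nor the 14 of smallest p that were not called changed direction in any alternative run, and 4 of these 14 were called in at least 1. Of 965 list medians compared 34 moved by more than the spread, and of 3021 values of other named genes 11 did. Read depth is unknown, and 3 libraries per group limit the precision: the median gene had a 95% interval of 0.14 to either side.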
